A study of Mus musculus with 9 samples.

Results

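A whole-body knockout of Cd36 (CD36KO) was compared with wild type (WT) in hearts of mouse pups on postnatal day 1, by RNA sequencing of whole heart tissue. The comparison used 6 of the 9 libraries of the series, 3 from CD36KO and 3 from WT. The other 3 libraries, labelled as a cardiac specific knockout (CD36CKO), were used only where the whole-body knockout was set against them. It asked which heart transcripts differ at this age when Cd36 is disrupted in every tissue. Levels are in FPKM, fragment counts scaled to gene length and to the depth of the library. Of 56748 genes in the deposited table, the 12146 with a mean of at least 1 FPKM over the 6 libraries were tested. Of the rest, 16742 had reads but lay under that mean and 27860 were listed at 0 in all 6 libraries. At the edge of this rule, Xk was included at a mean of 1.0005 FPKM and Sox6 was not at 0.9998 FPKM. The knockout allele, the strain, the litters, the number of animals in a library and, for CD36CKO, the Cre driver are unknown here, since the sources used do not give them. The labels also do not say that the replicates of a group were separate animals. The p-values therefore measure only how far these particular libraries spread, and some of that spread may be technical.

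CD36 is a membrane glycoprotein that binds long-chain fatty acids and lipoproteins, and in the heart it is made by cardiomyocytes and by the endothelium of capillaries. The heart depends on fatty acids as its main fuel after birth, having used mostly glucose and lactate before it, and mouse cardiomyocytes stop dividing within days. Genes of fuel use, of the cell cycle and of the fetal contractile apparatus are known to change around birth.

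The reads recovered from the levels numbered 19883707, 14408631 and 16635835 in CD36KO 1 to 3, against 19315734, 18135234 and 16556015 in WT 1 to 3. Replicates correlated at 0.984 to 0.986 in CD36KO and at 0.957 to 0.987 in WT, on log2(FPKM + 1), and a gene's SD had a median of 0.11 in CD36KO and 0.21 in WT. The lowest correlation was between WT 2 and WT 3. Transcripts of the mitochondrial genome took 11.9%, 11.1% and 14.3% of the reads in CD36KO 1 to 3, against 6.02%, 4.55% and 8.89% in WT 1 to 3. CD36KO 3 expressed the Y-linked gene Ddx3y (9.72 FPKM), which was at 0 in the other 5 libraries, so CD36KO 3 also stood apart in Xist (0.318 FPKM, against 12.3 to 21.9 FPKM in the other 5). All 10 cardiomyocyte markers were tested, and they summed to between 17140 and 20210 FPKM in CD36KO and between 17520 and 28150 FPKM in WT, with 0 past the threshold by limma, 1 by voom and 3 at an unadjusted p under 0.05. In whole tissue, fewer cells of a type and less RNA per cell cannot be told apart.

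Cd36 itself was checked first (ENSMUSG00000002944; chromosome 5, 17986688 to 18093799 on the minus strand as deposited, build not given). It stood at 72.4, 64.0 and 60.6 FPKM in CD36KO 1 to 3, against 163, 150 and 125 FPKM in WT 1 to 3. The groups did not overlap, and the CD36KO mean was 45.0% of the WT mean, a log2 fold change of -1.14 (SE 0.15, adjusted p = 0.0130). A level for the whole gene does not show which exons are left, so it checks the direction of the label and not the allele. The call held under 11 other settings that kept all 6 libraries, and it missed the threshold without CD36KO 1 (adjusted p = 0.0638), CD36KO 2 (0.0657), CD36KO 3 (0.0733) or WT 1 (0.0533), at log2 fold changes of -1.21 to -1.05. The libraries labelled CD36CKO held 201, 183 and 163 FPKM, all above every WT library except WT 1, which lay level with the lowest of them, so their label is not borne out by this gene. CD36KO lay 1.46 below them on the log2 scale (adjusted p = 0.00804).

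Differences between CD36KO and WT were spread over many genes and were mostly modest in size. Of the 12146 genes tested, 846 passed an adjusted p of 0.05 (6.97%), 375 of them higher in CD36KO (3.09%) and 471 lower (3.88%). The median log2 fold change was 0.66 among the higher and -0.77 among the lower, and 46 of the higher and 126 of the lower differed by at least 1 on the log2 scale. In all 846 the 3 CD36KO libraries lay wholly above or wholly below the 3 WT libraries, as they did in 35.3% of all genes tested. Of the higher genes 38 had a WT mean under 1 FPKM, and of the lower genes 44 had a CD36KO mean under 1 FPKM, so these entered the test through the group where they were high. With the mitochondrial and haemoglobin genes taken out and the libraries rescaled to the same sum, the median of all genes moved from -0.01 to 0.10 and the split turned to 268 higher and 139 lower. Of the 846 genes, 839 were tested under this setting and 518 when the filter was raised to 5 FPKM, and none of those tested changed its sign under any setting run. Leaving out CD36KO 1, 2 or 3 left 29, 104 and 64 calls, and leaving out WT 1, 2 or 3 gave 168, 300 and 3269. Only 26 genes were called in each of these 6 fits, 7 of them higher and 19 lower.

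**Figure D1:**
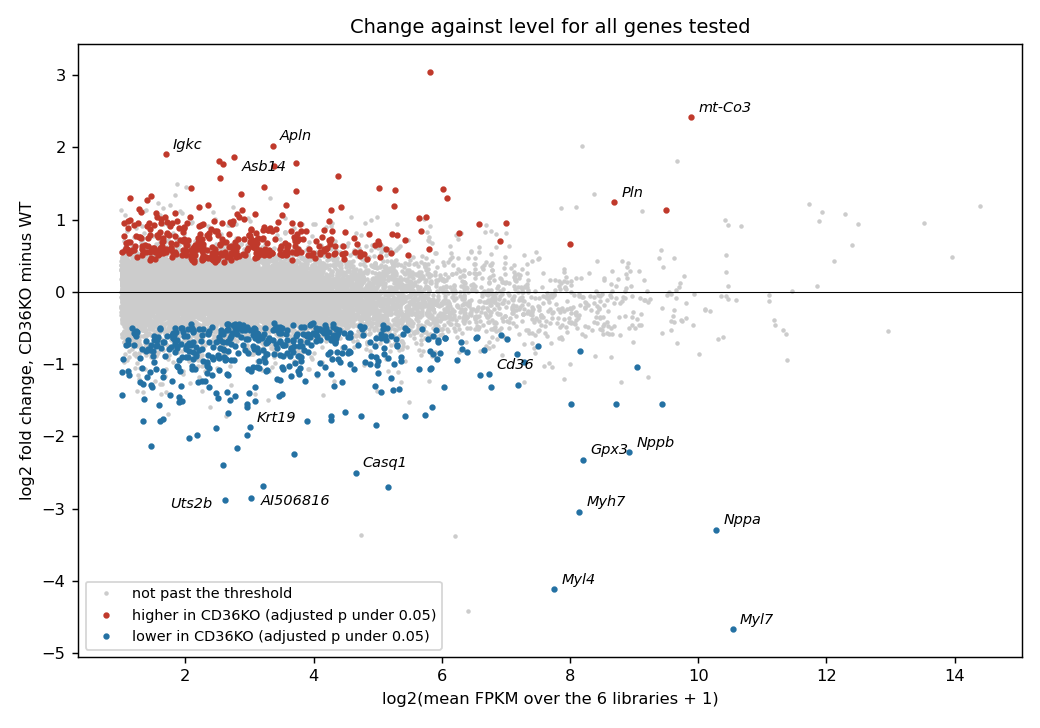
Log2 fold change of CD36KO minus WT for each of the 12146 genes tested, against the log2 of its mean FPKM plus 1. Red points are the 375 genes higher in CD36KO, blue points the 471 lower, and grey points did not pass. The largest falls include highly expressed genes of the atrium and of fetal muscle, from Myh7 at -3.04 to Myl7 at -4.67, and Apln is among the rises at 2.03.

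Several single genes rose by more than 1 on the log2 scale. Apln, the gene of the apelin peptide that acts on vessels and on cardiac contraction, stood at 13.7, 14.6 and 18.1 FPKM in CD36KO, against 2.75, 2.40 and 4.08 FPKM in WT (2.03, SE 0.18, adjusted p = 0.00483). The libraries labelled CD36CKO stood at 2.48, 1.69 and 3.88 FPKM, and CD36KO lay 2.20 above them (adjusted p = 0.00804). Kitl, which encodes stem cell factor, held 13.5, 10.3 and 14.4 FPKM in CD36KO, against 4.03, 3.90 and 4.07 FPKM in WT (1.45, adjusted p = 0.00524). Asb14, of the family of ankyrin repeat and SOCS box adaptors for ubiquitin ligases, held 9.03, 10.8 and 9.05 FPKM in CD36KO, against 2.70, 1.62 and 1.496 FPKM in WT (1.88, adjusted p = 0.00483).

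Other rises of this size fell in muscle metabolism and excitability. Fbp2, the muscle form of fructose-bisphosphatase, rose by 1.77 (adjusted p = 0.0456), although WT 3 alone was at 0.260 FPKM beside 2.97 and 2.70 FPKM in WT 1 and 2. Kcnip2, the subunit that shapes the transient outward potassium current, stood at 40.0, 49.3 and 49.9 FPKM in CD36KO, against 20.4, 17.5 and 12.3 FPKM in WT (1.44, adjusted p = 0.0130). Pln, which encodes the inhibitor of the sarcoplasmic calcium pump, stood at 545, 598 and 597 FPKM in CD36KO, against 262, 254 and 220 FPKM in WT (1.24, adjusted p = 0.0123). Each of these groups of values was clear of the other. Meox2, a homeobox factor of the endothelium (1.14, adjusted p = 0.00711), Scgb1c1, a secretoglobin (1.81, adjusted p = 0.00573) and Tuba8, a tubulin (1.44, adjusted p = 0.0376) also rose. Apln, Kitl, Asb14 and Scgb1c1 were called whichever of the 6 libraries was left out. Kcnip2 and Pln missed the threshold when any CD36KO library was left out, Tuba8 without CD36KO 1, CD36KO 3 or WT 1, Meox2 in 1 of the 6 fits, and Fbp2 when any library but WT 3 was left out. Pln, Scgb1c1 and Tuba8 overlap a gene on the opposite strand, and since it is not given whether counting used the strand, their values are uncertain.

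**Figure D2:**
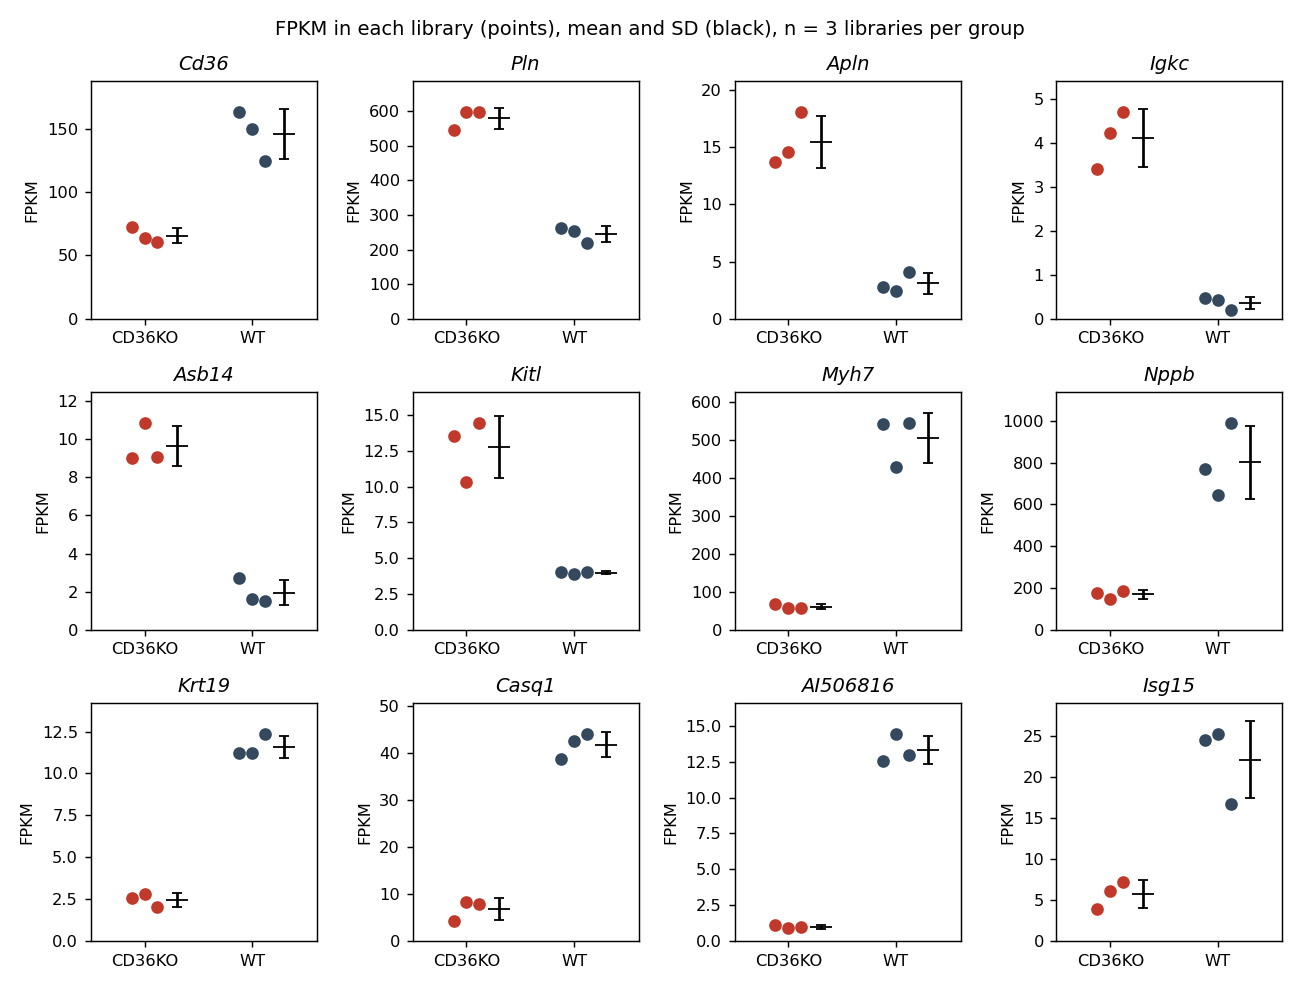
FPKM in each library for 12 genes, with CD36KO (red) left of WT (dark blue), points for the 3 libraries of a group and the mean with its SD in black. The groups are apart in every panel, from Cd36 at 45.0% of the WT mean to AI506816 at 7.42%.

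Among the falls, Myh7, the slow myosin heavy chain that the mouse ventricle uses before birth, was low in each CD36KO library. It stood at 67.6, 56.2 and 56.6 FPKM in CD36KO, against 542, 429 and 543 FPKM in WT (-3.04, SE 0.17, adjusted p = 0.000848). CD36KO kept 11.9% of the WT mean, and the libraries labelled CD36CKO held 479, 552 and 217 FPKM, 2.67 above CD36KO (adjusted p = 0.00804). Nppb, which encodes a natriuretic peptide of the strained ventricle, held 176, 145 and 188 FPKM in CD36KO, against 769, 645 and 990 FPKM in WT (-2.22, adjusted p = 0.00531). In the libraries labelled CD36CKO Nppb stood at 156, 106.5 and 62.0 FPKM, and CD36KO differed from them by 0.73 (adjusted p = 0.193). Casq1, a calcium store protein best known from fast skeletal muscle, held 4.16, 8.28 and 7.84 FPKM in CD36KO, against 38.7, 42.5 and 43.9 FPKM in WT (-2.50, adjusted p = 0.00483). Gpx3, a secreted glutathione peroxidase, held 76.0, 158 and 68.5 FPKM in CD36KO, against 326, 562 and 578 FPKM in WT (-2.33, adjusted p = 0.0179). Uts2b, which encodes a urotensin peptide, had no reads in CD36KO 1 and 3 and 1.84 FPKM in CD36KO 2, against 7.83, 12.1 and 8.94 FPKM in WT (-2.88, adjusted p = 0.0130). Smaller transcripts with large falls were Igfbp2, a carrier of insulin-like growth factors (-1.88, adjusted p = 0.0179), and Sult1a1, a phenol sulfotransferase (-1.77, adjusted p = 0.00524). Myh7, Nppb, Casq1 and Sult1a1 were called whichever library was left out, whereas Gpx3 and Uts2b missed the threshold without CD36KO 1 or CD36KO 3, and Igfbp2 in 3 of the 6. Myh7, Casq1 and Sult1a1 overlap other genes in antisense, which makes them uncertain.

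Several genes of DNA replication were higher in CD36KO. MCM2 to MCM7 form the ring-shaped helicase that opens DNA at replication origins, and 5 of the 6 genes rose, with a median of 0.92 against -0.01 for all genes tested. Their promoters are shown because genes of this helicase are known targets of E2F, the factor family released by cyclin D activity. Capitals mark E2F matches (TTTGGCGC or TTTCCCGC, either strand) in windows from 250 bases before to 50 after the RefSeq start, GRCm38.p6, chr1:20820263-20820562 on the minus strand for Mcm3 and chr8:75109259-75109558 on the plus strand for Mcm5.
Mcm3: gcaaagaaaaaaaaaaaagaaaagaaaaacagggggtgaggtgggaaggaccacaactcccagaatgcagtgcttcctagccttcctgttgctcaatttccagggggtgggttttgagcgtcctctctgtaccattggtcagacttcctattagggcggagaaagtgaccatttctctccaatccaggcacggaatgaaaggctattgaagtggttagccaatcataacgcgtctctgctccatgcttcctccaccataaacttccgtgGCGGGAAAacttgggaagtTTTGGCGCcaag
Mcm5: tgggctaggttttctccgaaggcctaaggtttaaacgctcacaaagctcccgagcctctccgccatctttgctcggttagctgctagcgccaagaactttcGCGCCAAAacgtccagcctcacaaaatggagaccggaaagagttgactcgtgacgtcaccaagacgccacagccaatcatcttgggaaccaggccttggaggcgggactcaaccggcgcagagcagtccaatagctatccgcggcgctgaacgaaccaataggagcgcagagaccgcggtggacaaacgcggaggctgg
Of the 5 helicase genes with a promoter there, 4 held a match (80.0%), Mcm7 among them, which did not rise, and so did 3.56% of the 8842 tested genes with a promoter there. A match is a description of the sequence and not a binding site.

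Mcm4 stood at 7.96, 8.77 and 8.81 FPKM in CD36KO, against 3.75, 3.55 and 3.20 FPKM in WT (1.08, SE 0.10, adjusted p = 0.00531). Mcm2 stood at 7.62, 7.27 and 8.76 FPKM in CD36KO, against 3.65, 3.71 and 3.17 FPKM in WT (0.98, adjusted p = 0.00966). Mcm3 stood at 12.4, 13.7 and 13.8 FPKM in CD36KO, against 6.83, 7.48 and 4.84 FPKM in WT (0.97, adjusted p = 0.0198). In each the lowest CD36KO library lay above the highest WT library. Mcm5 (0.88) and Mcm6 (0.70) rose as well, while Mcm7 stood at 12.6, 13.9 and 15.5 FPKM in CD36KO, overlapping 13.8, 15.9 and 13.9 FPKM in WT (-0.05, adjusted p = 0.804). Mcm4 was called in all 6 fits that left out a library. Without CD36KO 1 or CD36KO 3 it was the only helicase gene called, and 2 were called without CD36KO 2 or WT 1.

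In the wider list of S-phase entry and DNA synthesis, 9 of 49 tested genes rose and 0 fell, with a median of 0.30. Ccne2, the cyclin of the G1 to S step (0.77, adjusted p = 0.0262), Cdt1, a licensing factor for origins (0.73, adjusted p = 0.0280), Gins3 of the replicative helicase complex (0.65, adjusted p = 0.0351) and Uhrf1, which maintains DNA methylation behind the fork (0.74, adjusted p = 0.0351), rose. Of the D-type cyclins and their kinases 2 of 5 rose. Ccnd1 held 18.4, 14.8 and 18.2 FPKM in CD36KO, against 9.37, 8.16 and 7.86 FPKM in WT (0.93, adjusted p = 0.0130), and Ccnd2 rose by 0.64 (adjusted p = 0.0327), while Cdk4 was at 0.04 and Ccnd3 at -0.21. The S-phase count was 0 without CD36KO 1, 2 or 3 or WT 1, 2 without WT 2, and 19 without WT 3. Ccne2, Ccnd1 and Ccnd2 lie antisense to another gene and are uncertain.

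The genes of mitosis that passed were lower in CD36KO. In the list of mitotic cyclins, kinases and activators of the anaphase-promoting complex 7 of 25 fell and 0 rose (median -0.61). Among mitotic kinesins 4 of 10 fell (median -0.64), among cytokinesis and chromosomal passenger genes 7 of 21 (median -0.66) and among kinetochore and spindle checkpoint genes 3 of 30 (median -0.32), again with 0 higher. Condensin and cohesin subunits had 0 of 19 past the threshold by limma, 1 by voom and 6 at an unadjusted p under 0.05, with a median of 0.00. Many mitotic genes carry the cell cycle homology region, read by the DREAM and FoxM1-MuvB complexes, so the promoters of Cdc20 (GRCm38.p6, chr4:118437294-118437593, minus strand) and Ube2c (chr2:164769679-164769978, plus strand) are shown with it in capitals (TTTGAA, either strand).
Cdc20: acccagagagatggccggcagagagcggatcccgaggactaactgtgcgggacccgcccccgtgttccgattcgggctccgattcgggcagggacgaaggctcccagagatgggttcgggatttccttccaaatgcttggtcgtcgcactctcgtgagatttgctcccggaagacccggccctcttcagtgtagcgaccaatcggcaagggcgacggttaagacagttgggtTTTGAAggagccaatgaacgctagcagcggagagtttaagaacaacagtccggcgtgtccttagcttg
Ube2c: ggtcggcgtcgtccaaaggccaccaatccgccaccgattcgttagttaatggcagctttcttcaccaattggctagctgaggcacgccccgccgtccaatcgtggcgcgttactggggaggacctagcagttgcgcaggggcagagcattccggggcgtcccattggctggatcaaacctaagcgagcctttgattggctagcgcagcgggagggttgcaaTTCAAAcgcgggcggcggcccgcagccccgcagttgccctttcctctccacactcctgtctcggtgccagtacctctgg
The motif was in 13 of 19 matched genes of these lists that fell (68.4%), in 29 of 53 members that did not pass (54.7%) and in 14.0% of tested genes.

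Cdc20, which activates the anaphase-promoting complex, stood at 17.2, 17.5 and 26.4 FPKM in CD36KO, against 44.6, 58.1 and 56.9 FPKM in WT (-1.36, SE 0.19, adjusted p = 0.0143). Ube2c, the ubiquitin-conjugating enzyme of that complex, stood at 16.4, 14.7 and 21.1 FPKM in CD36KO, against 38.0, 47.4 and 55.4 FPKM in WT (-1.38, adjusted p = 0.0130). In both the groups were apart, and CD36KO 3 was the highest of its group. Ccnb2, a B-type cyclin, stood at 17.4, 17.4 and 22.7 FPKM in CD36KO, against 34.5, 43.3 and 51.1 FPKM in WT (-1.12, adjusted p = 0.0198). The motor gene Kifc1 (-1.23, adjusted p = 0.0249), the spindle kinase gene Aurka (-1.03, adjusted p = 0.0225), the chromosomal passenger gene Cdca8 (-0.92, adjusted p = 0.0179), the centromeric histone gene Cenpa (-1.04, adjusted p = 0.0201) and Cdca3 (-1.30, adjusted p = 0.0130) fell too. Without CD36KO 1, 0 members of the 4 lists were called, and the counts of the mitotic cyclin list ran from 0 there and without CD36KO 2, through 2 without CD36KO 3, to 12 without WT 3. With the mitochondrial and haemoglobin genes removed these lists kept 3, 0, 2 and 1 calls, and their medians stayed below 0, at -0.48, -0.53, -0.55 and -0.23. Leaving out WT 3, the library with the highest summed levels of all 4 lists, took the kinetochore median to -0.10 and the cytokinesis median to -0.32. Cdc20 and Ube2c lie antisense to another gene and are uncertain.

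These lists were also set against the other knockout. Against the libraries labelled CD36CKO, where 4.53% of 12206 genes differed (2.61% higher in CD36KO and 1.93% lower), 12 of the 25 mitotic cyclin genes were higher in CD36KO and 0 lower, with a median of 0.88. Cdc20 was at 8.30, 7.12 and 9.64 FPKM in the libraries labelled CD36CKO, so CD36KO lay 1.17 above them (adjusted p = 0.0120), and Ube2c was 1.14 above (adjusted p = 0.0142). For Cdca8 the difference was 1.36 (adjusted p = 0.0100). Of the 48 S-phase genes tested in that comparison 25 were higher in CD36KO and 0 lower, and of the 6 helicase genes 5 were higher, with a median of 0.96. In Mcm2 the libraries labelled CD36CKO stood at 3.65, 3.06 and 4.12 FPKM, beside the WT values given above. In the list of proliferation markers and the FoxM1-Mybl2 program 3 of 21 tested genes were lower in CD36KO than in WT, namely Lin37 (-0.74), Dlgap5 (-0.83) and Ccnf (-0.60), and 1 was higher, with 17 of 21 below 0 and a median of -0.35. Against the libraries labelled CD36CKO 13 of the 21 were higher in CD36KO and 0 lower, with a median of 0.99. Lin37 lies antisense to another gene and is uncertain. The 1 gene of this list that rose against WT was Mybl2, a factor of the MuvB program, with 2.66, 3.29 and 3.41 FPKM in CD36KO, 0.643, 0.552 and 1.16 FPKM in the libraries labelled CD36CKO and 1.72, 1.34 and 2.04 FPKM in WT. It was higher in CD36KO than in WT (0.61, adjusted p = 0.0439) and than in the libraries labelled CD36CKO (1.22, adjusted p = 0.00865). The 2 comparisons share the CD36KO libraries, and without CD36KO 3 the second of them fell to 15 higher and 14 lower genes in all.

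**Figure D3:**
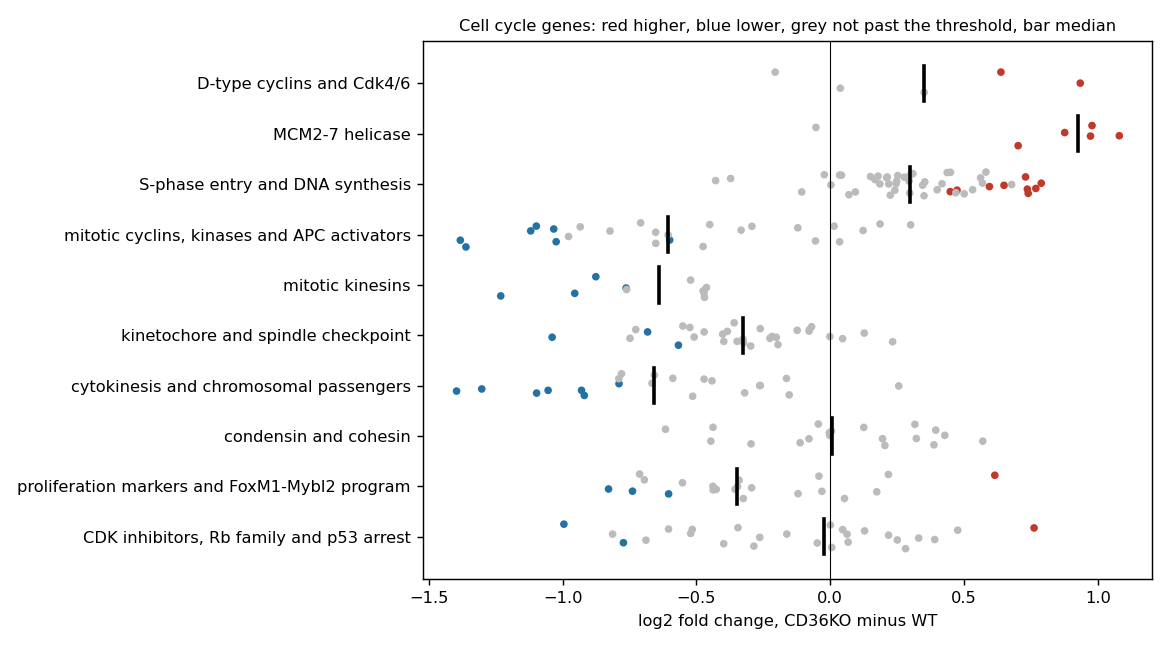
Log2 fold change of CD36KO minus WT for the tested members of 10 cell cycle lists, one point per gene, red for higher, blue for lower and grey for not past the threshold, with a bar at each median. Helicase and S-phase genes lie to the right of 0, with medians of 0.92 and 0.30, and the 4 mitotic lists to the left, with medians of -0.32 to -0.66.

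Of 26 tested brakes of the cycle 1 was higher and 2 were lower, beside 3.09% and 3.88% of all genes tested, with a median of -0.02. Rbl1, a retinoblastoma relative that binds E2F, rose by 0.76 (adjusted p = 0.0399), and Cdkn2d, whose product p19 blocks the D-cyclin kinases, fell to 26.7, 22.6 and 23.9 FPKM in CD36KO, against 44.7, 57.1 and 47.7 FPKM in WT (-0.99, adjusted p = 0.0130). Gadd45b, a stress-induced growth arrest gene, fell by 0.77 on the log2 scale (adjusted p = 0.0339). Of 26 growth factors and receptors 2 were higher and 2 lower, beside the same shares. Mycn rose by 0.81 (adjusted p = 0.0326), while Erbb2, the co-receptor of neuregulin, stood at 8.91, 8.38 and 8.68 FPKM in CD36KO, against 17.7, 18.6 and 15.2 FPKM in WT (-0.91, adjusted p = 0.0123). Rbl1 and Erbb2 lie antisense to another gene and are uncertain. Cdkn2d and Erbb2 missed the threshold when any CD36KO library was left out, and Mycn, Rbl1 and Gadd45b when any library other than WT 3 was.

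Of 21 tested genes of the atrial chamber 11 fell in CD36KO and 0 rose, with a median of -1.14, and in 17 the CD36KO libraries lay wholly under the WT libraries, as they did in 17.9% of all genes tested. Nppa, which encodes atrial natriuretic peptide, stood at 118, 421 and 219 FPKM in CD36KO, against 1606, 2864 and 2255 FPKM in WT (-3.29, SE 0.45, adjusted p = 0.0130). Myl7, the atrial regulatory light chain, stood at 43.0, 828 and 29.8 FPKM in CD36KO, against 2215, 3332 and 2475 FPKM in WT (-4.67, SE 1.11, adjusted p = 0.0490). Myl4, the atrial essential light chain, stood at 10.2, 78.3 and 11.6 FPKM in CD36KO, against 299, 517 and 374 FPKM in WT (-4.11, adjusted p = 0.0225). In all 3 genes CD36KO 2 lay above the other CD36KO libraries and still under every WT library. The atrial ligand gene Bmp10 (-2.69, adjusted p = 0.0210), Fgf12, which modulates sodium channels (-1.75, adjusted p = 0.0301), the secreted Wnt modulator gene Dkk3 (-1.84, adjusted p = 0.0331) and Kcnj3, of the atrial acetylcholine-gated potassium channel (-0.80, adjusted p = 0.0490), fell with them. The whole list summed to between 482.5 and 1762 FPKM in CD36KO and between 4744 and 7547 FPKM in WT. How much atrial tissue each sample held is not recorded, and its part in these differences was not tested. With library weights the list kept 1 fall, with no filter 0, and with the mitochondrial and haemoglobin genes removed 5, and the Myl7 call was lost in each of these (adjusted p = 0.186, 0.144 and 0.0605). It was also lost with no trend (0.0515), a pseudocount of 0.1 (0.0504) and quantile normalization (0.0528). Without CD36KO 1 or CD36KO 3 none of the 11 stayed called, without CD36KO 2 there were 9 calls, without WT 1 and WT 2 there were 2 and 3, and without WT 3 there were 14, whereas the median stayed between -1.34 and -0.94. Without CD36KO 2 the log2 fold change was -6.16 for Myl7 and -5.03 for Myl4, and for Myl7 it was -4.05 without CD36KO 1 and -3.79 without CD36KO 3. Nppa and Myl4 lie antisense to another gene and are uncertain.

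Of 25 tested ventricular and cardiac transcription factor genes 1 rose and 0 fell, beside 3.09% and 3.88% of all genes tested. The median was 0.15. Irx5, a homeobox factor that shapes the ventricular repolarization gradient, held 7.24, 7.32 and 8.50 FPKM in CD36KO, against 3.91, 3.04 and 3.62 FPKM in WT (0.94, adjusted p = 0.0123). The ventricular light chain Myl2, at 5211, 4984 and 4607 FPKM in CD36KO, overlapped WT at 4425, 5397 and 2074 FPKM (0.42, adjusted p = 0.506). Myh6, the adult myosin heavy chain, was at -0.58 (adjusted p = 0.153).

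In the sarcomere list 5 of 33 genes fell, Cmya5 rose (0.50), and the median was -0.29. Besides Myh7 the falls were Tpm2, beta-tropomyosin, at 15.9, 21.2 and 20.1 FPKM in CD36KO, against 62.1, 69.6 and 62.9 FPKM in WT (-1.72, adjusted p = 0.00483), Acta1, skeletal alpha-actin (-1.70, adjusted p = 0.0207), Ankrd1, the stretch-responsive titin partner (-1.55, adjusted p = 0.00953), and Myom1 of the M-band (-0.63, adjusted p = 0.0419). Stretch and YAP targets gave 5 falls of 27 and 0 rises, Nppb, Ankrd1, Acta1, Flnc (-0.73, adjusted p = 0.0279) and Fhl1 (-0.85, adjusted p = 0.0303). Fast skeletal muscle isoforms fell too. Myl1 stood at 6.50, 13.4 and 6.47 FPKM in CD36KO, against 43.1, 72.0 and 68.4 FPKM in WT (-2.71, adjusted p = 0.00925), and Tnnt3 fell by 1.18 on the log2 scale (adjusted p = 0.0111). Myh8, the perinatal myosin, was under the threshold for testing and was looked up after these values were seen, with 8, 18 and 2 reads in CD36KO, against 240, 242 and 218 in WT. Of the 14 skeletal muscle markers 5 were tested and 2 fell, and the list summed to 438, 436 and 418.5 FPKM in CD36KO, against 639, 768 and 429 FPKM in WT. Myod1 had 0 reads in all 6 libraries and Myog at most 3, and the part of other muscle in these values was not tested. Without CD36KO 1, 2 or 3 the sarcomere list kept 2, 3 and 2 falls. Ankrd1, Myom1 and Tnnt3 lie antisense to another gene and are uncertain.

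Most channel genes that passed were higher. Among ion channels and connexins 4 of 23 rose and 1 fell. Gja1, which encodes connexin 43, held 51.0, 56.3 and 49.7 FPKM in CD36KO, against 34.8, 28.5 and 30.6 FPKM in WT (0.73, adjusted p = 0.0251). Abcc9, the sulfonylurea receptor of potassium channels and also a pericyte marker, held 28.9, 29.0 and 28.4 FPKM in CD36KO, against 14.0, 9.31 and 13.6 FPKM in WT (1.18, adjusted p = 0.0130). In the calcium list 2 of 27 genes rose and 1 fell, beside 3.09% and 3.88% of all genes tested. The rises were Pln and Camk2a (0.55, adjusted p = 0.0347), and the fall was Casq1. Atp2a2, the calcium pump that phospholamban inhibits, was at 0.34 (adjusted p = 0.295). Adrb1, the beta1-adrenergic receptor gene, held 8.49, 9.63 and 10.2 FPKM in CD36KO, against 6.18, 4.96 and 3.42 FPKM in WT (0.86, adjusted p = 0.0370). Without CD36KO 1, 2 or 3 the channel list and the calcium list each kept 0 rises.

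In glycolysis 6 of 25 genes fell and 1 rose, with a median of -0.41. Of the 25, 19 lay below 0 and 14 had all CD36KO libraries below all WT libraries (17.9% of all genes tested did). Eno1, the ubiquitous enolase, stood at 82.2, 81.1 and 87.8 FPKM in CD36KO, against 210, 232 and 177 FPKM in WT (-1.28, SE 0.15, adjusted p = 0.0110), while the muscle enolase Eno3 was at 0.22 (adjusted p = 0.638). Pfkp, a phosphofructokinase (-0.85, adjusted p = 0.0130), the lactate exporter gene Slc16a3 (-1.02, adjusted p = 0.0130), Aldoc (-0.69, adjusted p = 0.0251) and Pgk1 (-0.82, adjusted p = 0.0293) fell, and Hk2, the insulin-responsive hexokinase, rose (0.67, adjusted p = 0.0347). Slc16a3, Pfkp and Hk2 lie antisense to another gene and are uncertain. Without CD36KO 1 or CD36KO 2 the falls numbered 0, and without CD36KO 3, 1.

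Fatty acid oxidation had 0 of 35 genes past the threshold by limma, 5 by voom and 11 at an unadjusted p under 0.05. Of the 35, 27 lay above 0 and 18 had all CD36KO libraries above all WT libraries (17.4% of all genes tested did). The median was 0.31, and 7 genes rose and 0 fell once the mitochondrial and haemoglobin genes were removed, while 8 rose and 2 fell without WT 3. Acadl, the long-chain dehydrogenase, stood at 536, 559 and 488 FPKM in CD36KO and 473, 447 and 336 FPKM in WT (0.35, adjusted p = 0.287). PPAR targets had a median of 0.35, with 2 of 23 higher and 0 lower, beside 3.09% and 3.88% of all genes tested. Cat, the gene of catalase, was among the rises. It stood at 50.3, 51.4 and 45.2 FPKM in CD36KO, against 32.6, 27.7 and 23.8 FPKM in WT (0.79, adjusted p = 0.0280). Fabp3, the heart fatty acid binding protein gene, was at 5257, 5394 and 4821 FPKM in CD36KO and 3113, 3469 and 1279 FPKM in WT, with wide spread in WT (1.10, adjusted p = 0.129). In uptake and storage 2 of 34 rose and 2 fell, beside 3.09% and 3.88% of all genes tested. Gpam, which starts triglyceride synthesis (0.73, adjusted p = 0.0258), and Meox2 were the rises, and Lipe, hormone-sensitive lipase, fell along with Cd36, to 5.73, 6.003 and 5.62 FPKM in CD36KO, against 11.3, 13.8 and 9.13 FPKM in WT (-0.85, adjusted p = 0.0246). Of ketone and branched-chain amino acid enzymes 2 of 22 rose, beside 3.09% of all genes tested, and 0 fell. Hibch was among the rises (0.53, adjusted p = 0.0381), whereas Oxct1, which uses ketone bodies, was at -0.33 (adjusted p = 0.258). Hsd17b7 of the cholesterol pathway rose by 1.07 (adjusted p = 0.0130). Gpam, Lipe and Hibch lie antisense to another gene and are uncertain.

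All 13 protein-coding genes of the mitochondrial genome lay above 0, with a median of 1.08, yet 3 passed. They were mt-Nd4l (1.43, adjusted p = 0.0316), mt-Co3 (2.42, adjusted p = 0.0439) and mt-Atp8 (1.21, adjusted p = 0.0455). The mt-Co3 values were 583, 1416 and 2908 FPKM in CD36KO, against 215, 199 and 363 FPKM in WT. These groups did not overlap but CD36KO spread widely, and without CD36KO 1 the log2 fold change was 3.02 (adjusted p = 0.0556). All 3 share bases with a neighbouring mitochondrial gene, and 0 of the list were called without CD36KO 1, 2 or 3, WT 1 or WT 2, against 10 without WT 3. Nuclear-encoded partners did not pass by limma. Complex I had 0 of 37 called (0 at an unadjusted p under 0.05, 0 by voom, median -0.02) and complexes III and IV had 0 of 26 (1 unadjusted, 1 by voom, median -0.05). ATP synthase and nucleotide exchange had 0 of 21 (1 unadjusted, 1 by voom, median -0.09) and the mitochondrial ribosome 0 of 77 (1 unadjusted, 0 by voom, median -0.11). All 4 medians lay above 0 once the mitochondrial and haemoglobin genes were removed, at 0.12 for complex I, 0.10 for complexes III and IV, 0.06 for ATP synthase and 0.02 for the mitochondrial ribosome. The cytosolic ribosome had 0 of 77 called, 11 at an unadjusted p under 0.05 and 0 by voom, with a median of -0.37 that was -0.22 after that removal. Without WT 3, 28 mitochondrial and 39 cytosolic ribosomal genes were lower in CD36KO.

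The genes that the study names around Cd36 were taken as a list. Of the 6 in this list 1 rose, 1 fell (Cd36) and 4 did not pass, and since the study chose them on these samples the count is not independent evidence. Rxrg, a retinoid X receptor, rose to 1.66, 2.99 and 2.78 FPKM in CD36KO, against 0.949, 0.900 and 0.617 FPKM in WT (0.92, adjusted p = 0.0321), a call lost when any library other than WT 3 was left out. The WT levels of Rxrg lay under the 1 FPKM of the filter, so it entered the test through CD36KO. Fabp5, a carrier of fatty acids and retinoic acid, stood at 40.0, 56.5 and 52.4 FPKM in CD36KO and 65.7, 76.8 and 69.1 FPKM in WT (-0.51, adjusted p = 0.0939). Ppard was at -0.17 (adjusted p = 0.353), Rxrb at -0.30 (0.184) and Rxra at 0.13 (0.467). In the retinoic acid list, 1 of 13 rose and 1 fell, beside 3.09% and 3.88% of all genes tested. Aldh1a2, the main enzyme of retinoic acid synthesis in the epicardium and stroma, stood at 15.9, 16.9 and 22.0 FPKM in CD36KO, against 7.55, 6.20 and 5.20 FPKM in WT (1.40, SE 0.17, adjusted p = 0.0111), and was also 1.01 above the libraries labelled CD36CKO (adjusted p = 0.0156). Tgm2, a transglutaminase induced by retinoic acid, stood at 36.7, 34.5 and 38.2 FPKM in CD36KO, against 84.8, 96.2 and 97.4 FPKM in WT (-1.32, adjusted p = 0.00524). The Aldh1a2 call was lost without CD36KO 1 and the Tgm2 call under none of the 6 omissions, and both genes lie antisense to another gene and are uncertain.

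In the interferon-stimulated list 9 of 37 tested genes fell and 0 rose, with a median of -0.31. These genes are switched on through a response element in their promoters, shown here in capitals (GAAA, any 2 bases, then GAAA, on either strand) for Isg15 (GRCm38.p6, chr4:156200769-156201068, minus strand), where 3 matches overlap each other, and Ifit3 (chr19:34583279-34583578, plus strand), where there are 2.
Isg15: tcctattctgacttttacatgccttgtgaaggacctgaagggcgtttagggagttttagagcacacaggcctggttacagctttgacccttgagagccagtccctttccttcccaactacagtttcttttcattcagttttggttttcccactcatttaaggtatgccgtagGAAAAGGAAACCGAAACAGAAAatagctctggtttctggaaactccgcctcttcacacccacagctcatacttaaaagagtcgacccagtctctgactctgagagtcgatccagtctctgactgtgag
Ifit3: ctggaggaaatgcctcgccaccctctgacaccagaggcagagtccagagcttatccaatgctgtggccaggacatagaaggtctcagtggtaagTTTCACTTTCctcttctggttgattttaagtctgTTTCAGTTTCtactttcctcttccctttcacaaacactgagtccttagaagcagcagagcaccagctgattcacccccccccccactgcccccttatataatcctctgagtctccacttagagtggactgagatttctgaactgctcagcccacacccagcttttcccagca
The element was in 4 of 7 matched genes that fell (57.1%), in 10 of 23 that did not pass (43.5%) and in 3.35% of tested genes. Isg15, a ubiquitin-like antiviral protein, stood at 3.87, 6.11 and 7.20 FPKM in CD36KO, against 24.5, 25.2 and 16.7 FPKM in WT (-1.79, SE 0.23, adjusted p = 0.0123). Ifitm3, a membrane restriction factor, stood at 103, 106 and 105 FPKM in CD36KO, against 184, 217 and 218 FPKM in WT (-0.97, adjusted p = 0.0146). Irf7, the factor that amplifies the response (-0.97, adjusted p = 0.0130), Ifit3 (-1.02, adjusted p = 0.0130) and Oasl2 (-1.06, adjusted p = 0.0123) fell alongside. Between CD36KO and the libraries labelled CD36CKO the difference did not pass in any of these 5 (adjusted p from 0.176 to 0.613). That does not show that these groups were alike. The count was 0 without CD36KO 1, 3 and 2 without CD36KO 2 and 3, 3 and 6 without WT 1 and 2, and 14 without WT 3. Irf7 and Ifitm3 lie antisense to another gene and are uncertain.

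Members of several stress lists were lower as well. In the serine, one-carbon and ATF4 list 5 of 22 fell and 0 rose. Phgdh, which opens serine synthesis from glycolysis, stood at 2.59, 3.23 and 2.92 FPKM in CD36KO, against 7.57, 8.95 and 6.42 FPKM in WT (-1.14, adjusted p = 0.0111), and Shmt2 (-0.74, adjusted p = 0.0179), Mthfd2 (-0.63), Psat1 (-0.58) and the amino acid transporter gene Slc7a5 (-0.80) followed, while Atf4 itself was at -0.19 (adjusted p = 0.357). Of 18 metallothionein and glucocorticoid-responsive genes 4 fell and 1 rose, with a median of -0.71. The metal-binding genes Mt2 (-1.55, adjusted p = 0.0170) and Mt3 (-1.14, adjusted p = 0.0293), Sult1a1 and Ddit4, an inhibitor of mTOR signalling (-0.97, adjusted p = 0.0324), fell. Nr3c1, the glucocorticoid receptor gene itself, rose to 9.83, 9.09 and 8.41 FPKM in CD36KO, against 5.76, 4.63 and 4.19 FPKM in WT (0.79, adjusted p = 0.0210). Hif3a, a glucocorticoid- and hypoxia-responsive factor outside these lists, fell to 2.21, 1.95 and 1.47 FPKM in CD36KO, against 7.99, 6.42 and 20.7 FPKM in WT (-1.98, adjusted p = 0.0284). Of 27 antioxidant genes 3 fell and 1 rose, beside 3.88% and 3.09% of all genes tested, with a median of -0.14. Gpx3, Gstm1 (-1.07, adjusted p = 0.0130) and Gsta4 (-0.65, adjusted p = 0.0394) fell and Cat rose. Without CD36KO 1 or CD36KO 3 the antioxidant falls numbered 0. By limma 0 of 19 clock, 0 of 21 immediate early and 0 of 21 unfolded protein response genes passed, and by voom 0 in each, with 6, 5 and 1 at an unadjusted p under 0.05. Without CD36KO 1 or CD36KO 3 the ATF4 list kept 0 calls and without CD36KO 2 it kept 1, while the metallothionein list kept 1 to 3 falls when any library other than WT 3 was left out and had 10 without WT 3. Shmt2, Psat1, Mt2 and Hif3a lie antisense to another gene and are uncertain.

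Several pericyte markers were higher. Of 11 tested 5 rose and 0 fell, and the list summed to 162, 169 and 179 FPKM in CD36KO, against 124, 132 and 107 FPKM in WT. Rgs5, the defining pericyte gene, stood at 50.3, 47.9 and 57.4 FPKM in CD36KO, against 24.1, 23.1 and 19.6 FPKM in WT (1.19, SE 0.13, adjusted p = 0.00934). Vtn (0.97, adjusted p = 0.0210), Steap4 (0.91, adjusted p = 0.0256), Rgs4 (0.63, adjusted p = 0.0319) and Abcc9 rose with it, and Ndufa4l2 was at -0.22 (adjusted p = 0.655). Steap4 lies within 10 Mb of Cd36 and is also counted among its neighbours below. In smooth muscle, 1 of 9 fell and 1 (Pln) rose, beside 3.88% and 3.09% of all genes tested. Cnn1, the calponin of contractile smooth muscle that the fetal heart also makes, stood at 4.75, 2.60 and 3.27 FPKM in CD36KO, against 16.4, 22.7 and 21.8 FPKM in WT (-2.24, adjusted p = 0.00483), while Acta2 spread over 146 to 400 FPKM in CD36KO and 280 to 801 FPKM in WT (-1.25, adjusted p = 0.156). Without CD36KO 1, 2 or 3 the pericyte rises numbered 0, 1 and 1, and without WT 1 and 2 they numbered 2 and 3.

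Some epicardial keratin and mesothelial genes fell while Aldh1a2, also in this list, rose. Krt19 stood at 2.55, 2.80 and 2.01 FPKM in CD36KO, against 11.2, 11.2 and 12.3 FPKM in WT (-1.87, SE 0.12, adjusted p = 0.00196), a difference that was called whichever library was left out. Krt8 (-0.77, adjusted p = 0.0303) and the uroplakin gene Upk1b (-0.77, adjusted p = 0.0243) fell, making 3 of 12, and Tcf21 was at -0.30 (adjusted p = 0.0980). Among fibroblast markers 2 of 15 fell, beside 3.88% of all genes tested, namely Dpep1 (-1.42, adjusted p = 0.0123) and Col1a1 (-0.59, adjusted p = 0.0452). Of 46 tested collagens and matrix genes 3 fell and 1 rose, beside 3.88% and 3.09% of all genes tested. The falls were Col18a1 (-0.63, adjusted p = 0.0351), Fbln1 (-0.93, adjusted p = 0.0325) and Col1a1, and the rise was Col15a1 (0.73, adjusted p = 0.0296). These falls numbered 0 with library weights, with the replicate number as a block and with the mitochondrial and haemoglobin genes removed. They also numbered 0 when any library other than WT 3 was left out. Tgfb3 stood at 5.18, 5.65 and 5.29 FPKM in CD36KO, against 11.4, 11.4 and 11.7 FPKM in WT (-0.97, adjusted p = 0.00547). Of endothelial markers 1 of 20 was past the threshold, beside 6.97% of all genes tested. It was Eng, a TGF-beta co-receptor, which fell by 0.63 on the log2 scale (adjusted p = 0.0430). Of the 20, 13 lay above 0, with a median of 0.09. In the vessel growth list 1 of 29 fell and 2 rose, beside 3.88% and 3.09% of all genes tested, with a median of 0.04. Ramp2, of the adrenomedullin receptor, fell (-0.86, adjusted p = 0.0302) and Apln and Nrp2 rose. Ramp2 and Nrp2 were each called in 1 of the 6 fits that left out a library. By limma 0 of 8 endocardial, 0 of 5 neutrophil and 0 of 8 erythroid markers passed (1, 0 and 0 by voom; 3, 3 and 5 at an unadjusted p under 0.05), and the erythroid median was -0.56. Krt8, Col18a1, Col15a1, Tgfb3 and Eng lie antisense to another gene and are uncertain.

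The immunoglobulin genes Igkc and Ighm passed the filter, and both rose in CD36KO. Igkc, the kappa light chain constant region, stood at 3.41, 4.22 and 4.70 FPKM in CD36KO, against 0.466, 0.420 and 0.205 FPKM in WT (1.90, SE 0.14, adjusted p = 0.00383), and the call held whichever of the 6 libraries was left out. Ighm, the heavy chain of IgM, stood at 3.06, 1.94 and 3.85 FPKM in CD36KO, against 0.525, 0.652 and 0.433 FPKM in WT (1.33, adjusted p = 0.0143), a call lost without CD36KO 1, CD36KO 3 or WT 1. The WT levels of both lay under the 1 FPKM of the filter. The other lymphoid markers were too low to test, 8 of 10, and some were looked up after these values were seen. Cd79a, a subunit of the B-cell receptor, had 47, 23 and 41 reads in CD36KO, against 11, 8 and 1 in WT. Ms4a1, which encodes CD20, had 10, 15 and 25 reads in CD36KO, against 1, 1 and 0 in WT. Not all low immunoglobulin genes were apart. Iglc1 had 13, 6 and 4 reads in CD36KO, against 1, 0 and 0 in WT, whereas Iglc3 had 4, 3 and 4 in CD36KO, overlapping 1, 2 and 4 in WT. Jchain had 1, 1 and 11 reads in CD36KO, also overlapping 4, 1 and 0 in WT, and Igha and Ighg2b had 0 in every library. Of the T-cell and recombinase genes looked up, Cd3e had at most 2 reads and Rag2 had 0 in every library. Cd3d had 9, 2 and 1 reads in CD36KO, against 0, 0 and 0 in WT. Rag1 had 10, 0 and 2 in CD36KO, overlapping 0, 0 and 1 in WT. In the libraries labelled CD36CKO Igkc was at 0.888, 0.240 and 1.46 FPKM, and CD36KO lay 1.503 above (adjusted p = 0.0108). The lymphoid list summed to 10.4, 9.40 and 12.8 FPKM in CD36KO, against 1.84, 2.30 and 1.42 FPKM in WT, and the part of lymphoid cells in these values was not tested. The lung transcript Sftpc stood high in a single library, with 106 reads in CD36KO 1. It had 2 and 8 reads in CD36KO 2 and 3 and 6 to 14 in WT. The lung list as a whole summed to 8.37, 1.597 and 2.35 FPKM in CD36KO, against 4.78, 5.54 and 7.64 FPKM in WT. Ager, the other tested lung marker, was lower in CD36KO (-1.04, adjusted p = 0.0439), a call kept in 1 of the 6 fits that left out a library. The thymus list summed to at most 0.463 FPKM in CD36KO and 0.108 FPKM in WT. Of macrophage markers 1 of 9 rose, beside 3.09% of all genes tested, namely Cx3cr1 (0.92, adjusted p = 0.0442).

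**Figure D4:**
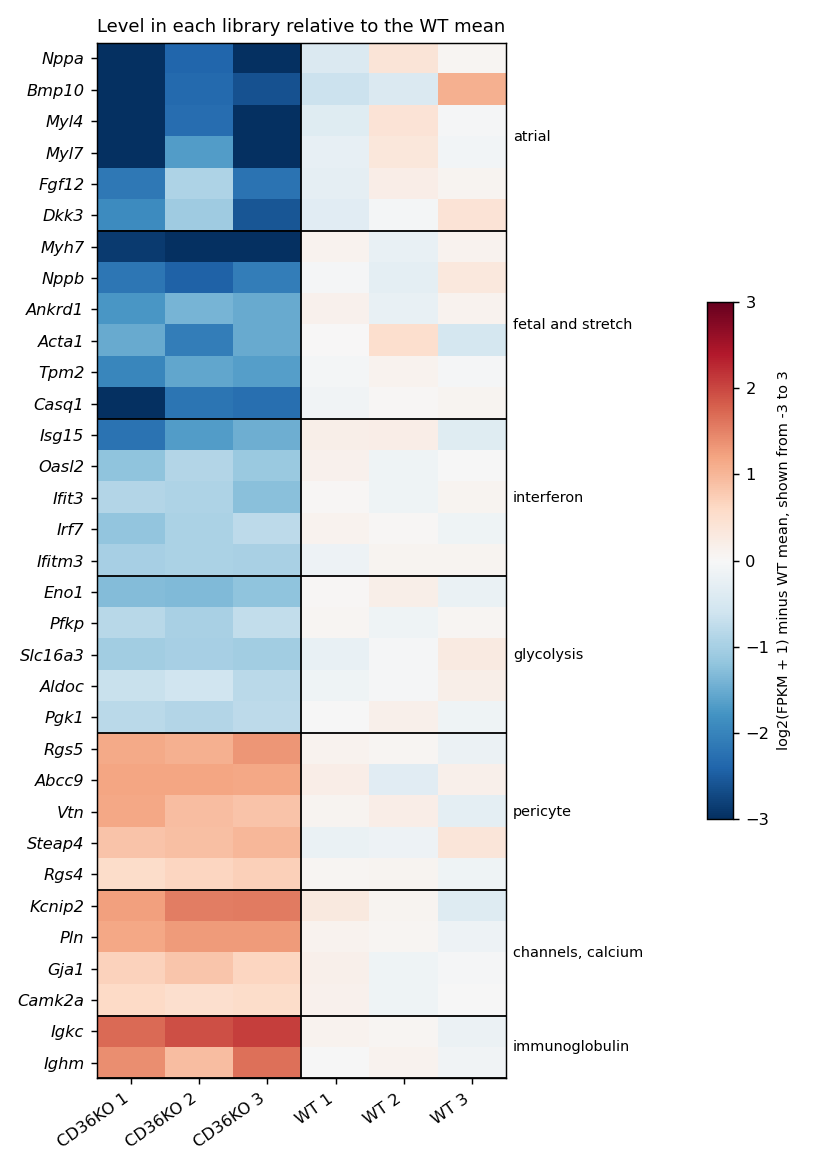
Levels of 33 genes in the 6 libraries as log2(FPKM + 1) minus the WT mean of the gene, with CD36KO left of WT and colours limited to -3 and 3. All genes shown passed the threshold. Atrial genes are lowest in CD36KO 1 and 3 and less so in CD36KO 2. The pericyte group and the channel and calcium group hold only genes that rose, higher in all 3 CD36KO libraries. Of the 11 pericyte markers tested, 6 did not pass and are not shown.

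Noncoding transcripts made up 42 of the 375 higher and 58 of the 471 lower calls when every class other than protein-coding genes is counted. Protein-coding genes were 10762 of the 12146 tested, 333 of the higher and 413 of the lower calls, so the shares were close. The smallest p of all genes belonged to the long noncoding RNA AI506816, at 1.13, 0.885 and 0.954 FPKM in CD36KO, against 12.6, 14.4 and 12.99 FPKM in WT (-2.85, SE 0.11, adjusted p = 0.000100). It was as low in the libraries labelled CD36CKO, at 0.990, 0.424 and 0.815 FPKM, and CD36KO differed from them by 0.20 (adjusted p = 0.410). Gm13054, which lies opposite Nppa, fell with it (-2.02, adjusted p = 0.0201), and the transcript Mylf-ps fell by 2.15 on the log2 scale (adjusted p = 0.00547). Meg3, a maternally expressed RNA of the imprinted growth network, stood at 4.35, 4.80 and 4.88 FPKM in CD36KO, against 10.8, 7.80 and 14.5 FPKM in WT (-1.05, adjusted p = 0.0293), and its paternally expressed neighbour Dlk1 stood at 15.2, 16.3 and 15.3 FPKM in CD36KO, against 28.8, 29.8 and 27.9 FPKM in WT (-0.84, adjusted p = 0.0120). These were 2 of 19 tested imprinted genes, beside 3.88% lower among all genes tested, and H19 was at -0.66 (adjusted p = 0.105). Among the rises were Gm50321, at 27.7, 34.7 and 29.0 FPKM in CD36KO, against 10.5, 9.66 and 7.92 FPKM in WT (1.61, adjusted p = 0.00483), and Gm49477 (1.74, adjusted p = 0.0283). AI506816 and Gm50321 were called whichever library was left out. AI506816 shares bases with Gm50451 on its own strand, and Gm13054, Mylf-ps and Gm49477 overlap genes on the opposite strand, so these values are uncertain.

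Genes near Cd36 on its chromosome were looked at apart. Within 10 Mb of it 68 genes were tested and 13 were called (19.1%, against 6.97% of all genes tested), 9 of them higher and 4 lower, with a median of 0.07. In 5 of the 13 the lower group had a mean under 1 FPKM, so that they passed the filter through the group where they were high, as in 82 of the 846 calls over all genes (38.5% and 9.69%). The distance bins held 1 of 10 and 1 of 5 on the side of smaller coordinates, and 3 of 18 and 8 of 35 on the side of larger ones, the nearer 5 Mb of that side first. Sema3c, a guidance cue for vessel and outflow tract growth that borders Cd36, stood at 2.27, 1.81 and 2.17 FPKM in CD36KO, against 1.05, 0.713 and 0.733 FPKM in WT (0.75, adjusted p = 0.0243). Gnai1, an inhibitory G protein subunit on the other side, stood at 9.81, 9.76 and 7.83 FPKM in CD36KO, against 6.26, 5.56 and 6.10 FPKM in WT (0.53, adjusted p = 0.0430). AI506816, described above, lies 5.81 Mb away. Klhl7 (0.80, adjusted p = 0.0327), Galnt11 (0.79, adjusted p = 0.0236), Fam185a (0.51, adjusted p = 0.0401), Steap4 and the transcripts Gm9057, Gm9836 and 1700096K18Rik rose, and Rint1 (-0.67, adjusted p = 0.0312), Gm43566 (-0.79, adjusted p = 0.0428) and Prkag2os1 (-1.78, adjusted p = 0.00743) fell. Prkag2os1 held 0.0482, 0.129 and 0.176 FPKM in CD36KO, against 3.90, 2.88 and 1.98 FPKM in WT, and 0.191 to 0.483 FPKM in the libraries labelled CD36CKO. AI506816 was the only gene of the 13 called in all 6 fits that left out a library, Prkag2os1 was called in 5, Galnt11 in 2 and each of the other 10 in 1. Strain of origin around the disrupted gene is not given in the sources used here, so an effect of the allele and of linked sequence cannot be told apart.

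**Figure D5:**
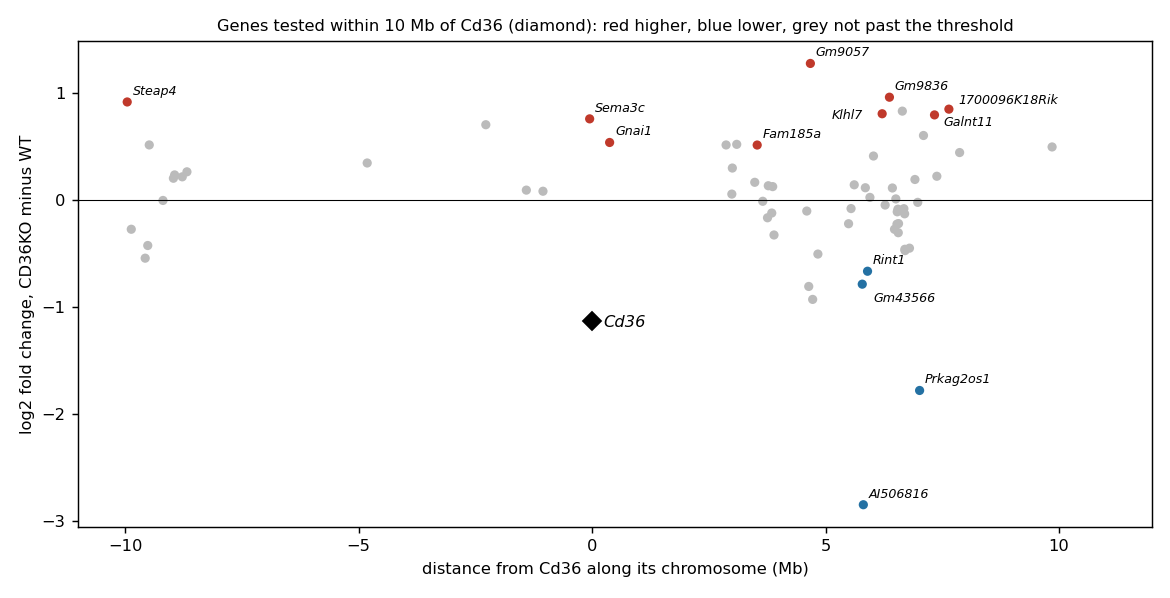
Log2 fold change of CD36KO minus WT for the 68 genes tested within 10 Mb of Cd36, against their distance from it, with Cd36 as a diamond at -1.14. Red and blue mark the 9 genes higher and the 4 lower, and AI506816 at -2.85 and Prkag2os1 at -1.78 lie lowest.

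Set against the libraries labelled CD36CKO, the whole-body knockout differed at 553 of 12206 genes, 318 higher and 235 lower. Besides Cd36, Apln, Myh7 and the cell cycle lists, Cnn1 (-1.33, adjusted p = 0.0215), Dpep1 (-1.46, adjusted p = 0.0113) and Sult1a1 (-1.39, adjusted p = 0.00865) were lower in CD36KO. Lipe (-1.05, adjusted p = 0.00865), Mt2 (-1.30, adjusted p = 0.0142) and Krt19 (-0.65, adjusted p = 0.0204) were lower too. Kitl (0.61, adjusted p = 0.0323), Ccnd1 (0.74, adjusted p = 0.0120), Nrep (1.10, adjusted p = 0.0312) and Scgb1c1 (1.30, adjusted p = 0.0287) were higher. For Asb14, Kcnip2, Isg15, Nppb, Eno1, Phgdh and Rgs5 the difference did not pass, with adjusted p from 0.117 to 0.999, which does not show that these groups were alike. The atrial list had 0 of 21 genes past the threshold in this comparison and a median of -0.40. CD36CKO 3 held skeletal muscle transcripts, its marker list summing to 3606 FPKM beside 386 to 504 FPKM in CD36CKO 1 and 2. Acta1, Myl1, Tpm2, Tnnt3 and Casq1 are therefore not set against that group. The calls ran from 36 higher and 26 lower without CD36CKO 2, and from 15 higher and 14 lower without CD36KO 3, to 213 higher and 98 lower without CD36CKO 3.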

How the data were processed

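RNA of whole hearts was sequenced from poly-A-selected, strand-marked libraries, per the labels' protocols. Gene levels were deposited by the authors as FPKM, and the submitters' processing notes name CASAVA, HISAT2, HISAT and TopHat2 without roles or versions. No source used here states the genome build or whether strand entered the counting. The tested genes, 12146 with a mean of at least 1 FPKM over the 6 libraries, were compared on log2(FPKM + 1) with limma 3.58.1 in R 4.3.3 (moderated test with a mean trend, two-sided, 4 residual and 3.62 prior degrees of freedom). P-values were adjusted by Benjamini and Hochberg over all tested genes, with 0.05 as threshold. A fold change on this scale understates the change of low genes. CD36KO against CD36CKO was fitted on 9 libraries.

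FPKM values times gene length stepped in whole reads (100% of values, within 0.05 reads), so reads were recovered and limma's voom was run on them as an alternative. Whole reads give the depth stated per library, and intervals from them would cover counting error only. Between 3 and 3 libraries an exact permutation test of a single gene cannot go below p = 0.1, so none was used.

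Genes were named by rule: Cd36 and the study's genes, per direction the top 15 protein-coding genes by change, the top 10 by p and the top 4 noncoding genes by change, up to 5 called members of each list per direction with its 2 highest members, and called genes within 10 Mb of Cd36. Not every gene so chosen is described, and some are not reported here. Ms4a1, Cd79a, Myh8 and other low genes were chosen after their values were seen. Members and lists were chosen with earlier results of these data known. Promoters are RefSeq windows of 300 bases on GRCm38.p6, matched by symbol (8842 of 12142 tested symbols). The promoters of Mcm4, Ccne2, Prim2, Cdc25c, Kif20a, Ifi27l2a and Rtp4 are not analysed here. Fits were also run on simulated data, and the outcome is not given here. Python 3.11.15 with numpy 2.4.6, pandas 2.3.3 and matplotlib 3.10.9 was used for the rest.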

Additional observations from a re-analysis of the deposited data

How the results depend on the processing

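The counts of genes between CD36KO and WT (375 higher, 471 lower) moved by over 1.5 times under several settings. They were 49 higher and 73 lower with no filter (28888 genes tested), 162 and 223 with library weights, 723 and 845 with the spread estimated over all 9 libraries, 246 higher with a mean of at least 5 FPKM, 568 higher after quantile normalization and 139 lower with the mitochondrial and haemoglobin genes removed. Voom on the recovered reads gave 414 and 445. Leaving out a library gave 8 to 1477 higher and 21 to 1792 lower genes, the lowest counts without CD36KO 1 and the highest without WT 3. The Cd36 difference ranged over -1.24 to -1.05 on the log2 scale in these fits, without CD36KO 1 at -1.21, CD36KO 2 at -1.12, CD36KO 3 at -1.08 and WT 1 at -1.05 missing the threshold. No called gene that a setting tested reversed there (839 of 846 were tested with the mitochondrial and haemoglobin genes removed and 518 with a mean of at least 5 FPKM). Between CD36KO and CD36CKO (318 higher, 235 lower) a mean of at least 5 FPKM gave 202 and 136, and leaving out a library gave 15 to 213 higher and 14 to 203 lower. The cause of these shifts was not tested, apart from the number of genes or samples that a setting changes by its construction.

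What libraries of the same number share besides that number is not given. Over all tested genes, deviations from the group means correlated at 0.08, -0.01 and 0.04 between CD36KO and WT. The mitochondrial share of reads was highest in library 3 and lowest in library 2 of each group. Blocking on the number took the SE from 0.548 to 0.347 for mt-Co3, 0.693 to 0.433 for Myl4 and 1.11 to 0.798 for Myl7. For Cd36 it stayed at 0.155. Whether the numbers mark a batch was not tested. With the replicate number as a block there were 118 higher and 199 lower genes between CD36KO and WT, and 245 and 154 between CD36KO and CD36CKO. Genes near 1 FPKM rest on few reads, and 3 libraries a group limit every comparison.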
